A study of Arabidopsis thaliana with 12 samples.

Results

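The features described here are the 90 brightest array features in WT among those whose platform annotation lists 2 or more genes. They were taken from 870 such features, out of 3439 in the table, and were chosen by the mean of the 6 deposited WT columns, so their WT levels are a description. Another 692 features list 1 gene, and for 1877 no gene is listed. The tested plants were the Arabidopsis pete1 pete2 double mutant, which lacks both isoforms of plastocyanin, and they were compared with WT plants. Both genotypes were of ecotype Columbia 0 and were grown on MS media, a standard plant culture medium. A one-colour array was used for total RNA, with 6 columns per genotype. The labels give no alleles, age, tissue or light regime, and they do not say whether columns come from separate plants, so the p-values reflect the spread between these samples alone, and that spread may be technical.

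Plastocyanin, a small copper protein, shuttles electrons through the thylakoid lumen between the cytochrome b6f complex and photosystem I. No feature of the table (0 of 3439) lists either plastocyanin gene, so the genotype labels could not be checked on those genes. A feature that lists several genes can bind RNA of each of them, and its intensity cannot be divided among them. Such listings arise where genes are copies of one another, where several genes lie beside each other under one stretch of probe sequence, or where transcripts share a stretch by other means. Arabidopsis has many gene copies of both kinds, as tandem arrays and as couples in duplicated blocks on different chromosomes. The intensities are from bulk RNA, in which fewer cells of a type and less RNA per cell cannot be told apart.

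The columns of each genotype were taken in the pairs 1-2, 3-4 and 5-6, called pair 1, 2 and 3. Deposited column totals ran between 3493 and 3778 intensity units and column medians between 0.341 and 0.659. Between 170 and 264 features per column were listed at 0. The highest value in the deposited scale is 100. The 3 pair medians over all features were 0.401, 0.653 and 0.342 in pete1 pete2, against 0.624, 0.490 and 0.524 in WT, so the scale of the bulk of features differed between pairs of one genotype. For this reason differences are given after quantile normalisation, on the log2 scale, as pete1 pete2 over WT, and the deposited intensities are given beside them.

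The 90 features list 204 different genes in 208 listings. Of the 90, 67 list 2 genes, 19 list 3, 3 list 4 and 1 lists 5. All 204 genes matched the TAIR10.1 gene table. In 9 features at least 1 listed gene has a name beyond its locus tag, and in 3 of these all listed genes share a name stem. They are the YUCCA genes YUC6 and YUC2, the genes PHOS32 and PHOS34, and the genes UBC20 and UBC19. Among the other 780 features listing several genes, 140 have a named gene and 38 have one shared stem throughout. Whether the remaining listings are protein families was not analysed here, and listed genes without a name are given by locus tag alone.

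Genes were called neighbours where at most 5 genes lay between successive ones on a chromosome. By that rule all genes were neighbours in 11 of the 90 features (12.2%), against 70 of the other 780 (8.97%). In a further 5 (5.56%, against 47 or 6.03%) some of the genes were neighbours. In 16 (17.8%, against 129 or 16.5%) the genes lay apart on one chromosome. The largest class was of genes on different chromosomes, with 56 features (62.2%, against 459 or 58.8%). The last 2 features (2.22%, against 71 or 9.10%) mixed distant genes of one chromosome with genes of others. These shares are descriptions and were not tested.

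The 11 features of neighbours are led by feature 1431, which lists CSLC12 (AT4G07960) with AT4G07950 and AT4G07940. CSLC12 belongs to the cellulose-synthase-like C family, whose members make the glucan backbone of xyloglucan. Feature 3033 lists AT2G17043, AT2G17080 and AT2G17070, and feature 3029 lists AT5G54360, AT5G54350 and AT5G54340. Feature 3885 lists AT3G50190, AT3G50140 and AT3G50130, and feature 4538 lists the first and second of those 3 genes. The remaining 6 list couples, namely AT1G21680 and AT1G21670, AT1G69660 and AT1G69650, AT4G20840 and AT4G20830, AT1G20065 and AT1G20070, AT3G22720 and AT3G22700, and AT2G43890 and AT2G43880. Mean deposited intensities of the 11 ran between 0.751 and 97.2 in pete1 pete2, against 1.73 and 80.3 in WT. The log2 fold change was positive in 5 and negative in 6, with a median of -0.12.

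In the 5 features with some neighbours, a local group is joined by genes elsewhere. Feature 2145 lists OPCL1 (AT1G20510), the CoA ligase that activates OPC-8:0 in jasmonate synthesis, with AT1G20480 beside it, and also AT5G63380, AT4G19010 and AT4G05160. Feature 4021 lists AT1G62085 and AT1G62110 with AT1G56380. Feature 877 lists AT2G43865, AT2G43870 and AT2G43860 with AT3G59850. Feature 3531 lists AT2G27800 and AT2G27790 with AT5G27300, and feature 725 lists AT5G56070 and AT5G56050 with AT4G26490. Their mean intensities ran between 1.87 and 7.47 in pete1 pete2, against 2.06 and 5.06 in WT, with 3 positive and 2 negative log2 fold changes.

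The 16 features of distant genes on one chromosome include feature 2956 with AT4G24026 and AT4G10810, the brightest of them. On chromosome 1 lie AT1G71970 and AT1G22680, listed by both feature 1652 and feature 938, and the couples AT1G80620 and AT1G15810, AT1G73750 and AT1G15060, and AT1G78110 and AT1G22230. Feature 4190 adds the triple AT1G75460, AT1G19740 and AT1G18660. Chromosome 2 holds the triple AT2G44400, AT2G42060 and AT2G27660 and the couple AT2G45406 and AT2G44030, and chromosome 3 holds AT3G62430 and AT3G54160. Chromosome 4 adds AT4G22030 with AT4G04480 and AT4G22850 with AT4G12000. Chromosome 5 holds AT5G07760 with AT5G07650, AT5G27880 with AT5G01860, AT5G27440 with AT5G24790, and AT5G25280 with AT5G11090. The 16 had mean intensities between 1.1 and 26.4 in pete1 pete2, against 1.74 and 16.6 in WT, with 7 positive and 9 negative log2 fold changes. The 2 mixed features are 4399, which lists AT1G59850, AT1G27210, AT5G62580 and AT2G07170, and 17, which lists AT2G04378, AT5G35760, AT5G24480 and AT5G01080.

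Of the 56 features with genes on different chromosomes, 46 list a couple and 10 a triple. Chromosomes 1 and 3 give 8 couples, more than any other combination. They are UBC20 (AT1G50490) and UBC19 (AT3G20060), AT1G18680 and AT3G47490, AT1G55340 and AT3G03880, AT1G52420 and AT3G15940, AT1G09520 and AT3G17460, AT1G62350 and AT3G46870, AT1G48490 and AT3G17850, and AT1G16250 and AT3G63220. Chromosomes 4 and 5 give 7 couples, which are AT4G25250 and AT5G51520, PHOS34 (AT4G27320) and PHOS32 (AT5G54430), AT4G26580 and AT5G55970, YUC2 (AT4G13260) and YUC6 (AT5G25620), AT4G01650 and AT5G08720, AT4G23440 and AT5G56220, and AT4G38150 and AT5G03560. Chromosomes 2 and 3 give 6, which are AT2G42220 and AT3G08920, AT2G16460 and AT3G51090, AT2G36300 and AT3G52760, AT2G01580 and AT3G07510, AT2G42920 and AT3G26630, and AT2G26240 and AT3G43520. The 4 couples of chromosomes 1 and 5 are UFO (AT1G30950) and AT5G15710, AT1G24270 and AT5G13090, AT1G32010 and AT5G38190, and AT1G15710 and AT5G34930.

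Chromosomes 1 and 2 give 5 couples, AT1G06890 and AT2G30460, AT1G02060 and AT2G37230, AT1G78140 and AT2G41040, AT1G74220 and AT2G03630, and AT1G29240 and AT2G34170. The 5 couples of chromosomes 3 and 5 are AT3G56360 and AT5G05250, AT3G02630 and AT5G16240, AT3G49350 and AT5G24390, AT3G04550 and AT5G28500, and AT3G51570 with CSA1 (AT5G17880). Chromosomes 2 and 4 give AT2G24550 and AT4G31510, AT2G45180 and AT4G00165, AT2G18330 and AT4G36580, and AT2G18980 and AT4G30170. The 3 couples of chromosomes 3 and 4 are AT3G06980 with RH39 (AT4G09730), AT3G08740 and AT4G26310, and AT3G25480 with TROL (AT4G01050). Chromosomes 1 and 4 give AT1G18270 and AT4G20930 and AT1G01570 and AT4G00295, and chromosomes 2 and 5 give AT2G05910 and AT5G20640 and AT2G26500 and AT5G35660.

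The 10 triples begin with feature 2283, which lists AT1G70160, AT5G54870 and AT4G27020, and feature 750, which lists AT5G45290, AT4G11680 and AT3G61180. The next are AT1G43770 with AT5G16680 and AT3G02890, AT1G01910 with AT5G60730 and AT3G10350, and AT1G08845 with AT5G27820 and AT3G20230. AT5G13810 is listed with AT3G57070 and AT2G41330, AT5G66000 with AT4G35510 and AT2G17540, and AT5G06380 with AT3G11690 and AT2G27180. The last are AT1G74870 with AT5G62910 and AT3G48070, and AT5G19210 with AT3G58510 and AT2G42520. Across all 56 features the log2 fold change was positive in 25 and negative in 31, with a median of -0.09.

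Some distant couples ran parallel, which means that both genes lay within 100 genes of the 2 genes of another feature's couple. This held for 34 of 77 features with a distant couple (44.2%), against 311 of the other 678 (45.9%). Within 50 genes it held for 28 (36.4%), against 228 (33.6%). In 3 cases both couples are among the 90. AT4G27020 and AT5G54870 of feature 2283 lie 37 and 55 genes from PHOS34 and PHOS32 of feature 4444. AT3G02890 and AT5G16680 of feature 3027 lie 37 and 54 genes from AT3G02630 and AT5G16240 of feature 4461. AT4G26490 and AT5G56070 of feature 725 lie 10 and 10 genes from AT4G26580 and AT5G55970 of feature 1112.

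Levels within the 90 fell off steeply. The median of the WT means was 2.77, against 0.473 in the other 780 features listing several genes, 0.515 in features listing 1 gene and 0.573 in features with no listed gene. This order follows from the rule. The 90 hold 52.0% of the summed WT mean of all 870, and the first 2 features alone hold 35.5% of the sum of the 90. The pair medians of the 90 were 2.66, 2.25 and 2.79 in pete1 pete2, against 2.51, 3.07 and 2.58 in WT. Of the 90, 80 are also among the 90 brightest when the pete1 pete2 columns are used for the ranking. Counted pair by pair, 77, 69 and 77 of them were in that pair's own first 90 in pete1 pete2, against 77, 82 and 78 in WT.

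**Figure D1:**
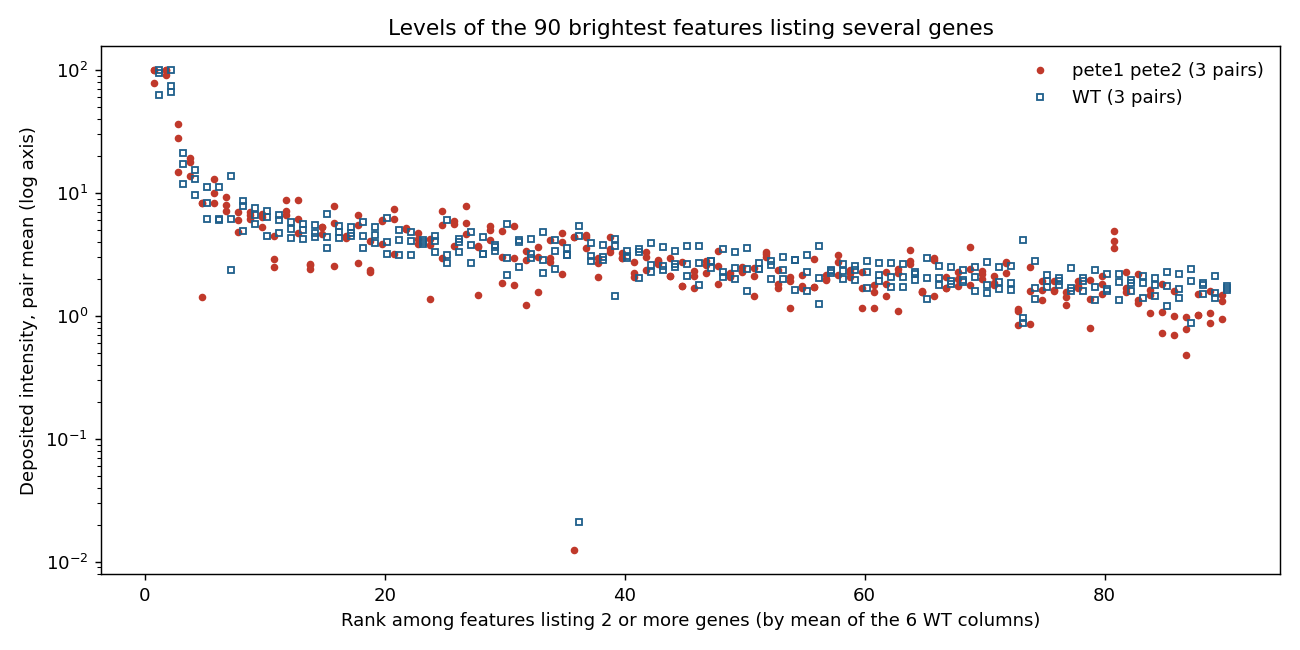
Deposited intensity (log axis) of the 90 features in each pair of columns, by rank in the mean of the 6 WT columns; red points are the 3 pete1 pete2 pairs and blue squares the 3 WT pairs. The first 2 features lie near the top of the scale at 100, most others lie between about 1 and 10, and a pair near 0 in each genotype belongs to feature 4461.

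Feature 1803, which lists AT5G51520 and AT4G25250, was the brightest. Its pair means were 100, 78.2 and 100 in pete1 pete2, against 62.3, 99.9 and 94.4 in WT. It stood at the top of the scale in 4 pete1 pete2 columns and 1 WT column. Its intensity there may be only a lower bound, since the sources do not say how the maximum of 100 was set. Feature 1431, with CSLC12, had 100, 100 and 91.5 in pete1 pete2, against 66.5, 100 and 74.3 in WT, and stood at the top in 4 and 2 columns. Both features stood at 100 together in pete1 pete2 columns 1 and 2 and in WT column 4. Whether values are cut off at 100 was not tested. The pairs of the genotypes overlapped in both features.

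With columns at the top of the scale in both genotypes, the size and direction of a difference cannot be read for these features. Quantile normalisation also gives the brightest feature of every column one value. CSLC12 is also listed by 2 features outside the 90. Feature 1130, which lists it with AT4G31590, AT3G28180 and AT2G24630, averaged 0.723 in pete1 pete2, against 0.853 in WT. Feature 1161, which lists the 3 genes of feature 1431 and AT4G07990, averaged 0.693 in pete1 pete2, against 0.703 in WT. Neither lists exactly the genes of feature 1431, which averaged 97.2 in pete1 pete2, against 80.3 in WT, and levels of different features are set by the probe as well.

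The next 8 by WT level were far dimmer. Feature 2956 (AT4G24026 and AT4G10810) had 36.3, 14.7 and 28.2 in pete1 pete2, against 11.7, 17.3 and 20.9 in WT, with a log2 fold change of 0.27 (SE 0.26), which ran between 0.064 and 0.47 when 1 pair was left out. Feature 2283 (AT1G70160, AT5G54870 and AT4G27020) had 17.9, 13.8 and 19.3 in pete1 pete2, against 9.59, 15.5 and 12.9 in WT. Feature 750 (AT5G45290, AT4G11680 and AT3G61180) had 8.35, 1.42 and 8.30 in pete1 pete2, against 8.23, 11.1 and 6.10 in WT. Its log2 fold change of -1.01 (SE 0.79), the most negative of the 90, came with overlapping pairs, and pair 2 of pete1 pete2 lay well below the other 5. Without that pair it was -0.18.

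Feature 3203 (AT4G31510 and AT2G24550) had 13.01, 8.22 and 10.01 in pete1 pete2, against 6.13, 6.08 and 11.2 in WT. Feature 4399 (AT1G59850, AT1G27210, AT5G62580 and AT2G07170) had 8.02, 9.31 and 7.11 in pete1 pete2, against 13.8, 6.15 and 2.37 in WT, the widest ratio between WT pairs among the first 10. Feature 3553 (AT1G06890 and AT2G30460) had 6.96, 4.80 and 6.03 in pete1 pete2, against 8.60, 7.79 and 4.91 in WT. In each of these 3 features the genotypes overlapped.

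Feature 4444 lists PHOS32 and PHOS34, phosphoproteins with a universal stress protein domain. It had 6.16, 6.67 and 7.06 in pete1 pete2, against 5.61, 6.65 and 7.55 in WT, and its log2 fold change was -0.09 (SE 0.16), with the sign turned under each of the other 3 scalings. Feature 2005 (AT4G00165 and AT2G45180) had 6.80, 6.42 and 5.32 in pete1 pete2, against 4.49, 6.32 and 7.19 in WT.

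In the test across all features, 1 of 3439 passed an adjusted p of 0.05 (limma, Benjamini-Hochberg), which is 0.0291% of them, and it was higher in pete1 pete2 and not among the 90. No feature of the 90 passed (0), and the lowest adjusted p among them was 0.202. With the 12 columns as separate samples 11 of the 90 passed (12.2%, all features 6.54%), which counts columns that lie close together within a pair as separate. With the pair as a random block 2 passed, features 1438 and 10 (2.22%, all features 0.552%). That fit allows for the closeness by a within-pair correlation common to all features, and columns of the 90 lay closer together than those of all features. At an unadjusted p under 0.05, 5 of the 90 were higher in pete1 pete2 (5.56%) and 4 were lower (4.44%), where all features gave 162 (4.71%) and 95 (2.76%). With columns centred on the median, limma gave an unadjusted p under 0.05 for 1 of the 90 in place of 9, and for 138 of all features in place of 257. Normalised pairs did not overlap in 12 of the 90 (13.3%), 5 above WT (5.56%) and 7 below (7.78%). Over all features this held for 341 (9.92%), 191 above (5.55%) and 150 below (4.36%), and in the other 780 for 66 (8.46%). Because the WT columns chose the 90, a lower value in pete1 pete2 is favoured by the choice, and these counts are descriptions. With 3 pairs against 3, an exact permutation test over pairs of one feature cannot give a p under 0.1.

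The median log2 fold change of the 90 was -0.04, with 42 positive and 48 negative. Over all 3439 features it was -0.01, with 1561 positive and 1760 negative. Of the 90, 77 lay within 0.5 of 0 and 88 within 1, and the extremes were -1.01 and 1.30. The scaling shifted this median, which was -0.07 on the deposited scale (all features -0.27), -0.06 with columns scaled to one total (all features -0.26) and 0.20 with columns centred on the median (all features -0.001). Of the 90, 36 were positive on the deposited scale, 38 with equal totals and 60 with columns centred on the median. Of all 3439 features, 723, 755 and 1712 were positive under the same 3 scalings. With the 90 brightest by the pete1 pete2 columns the median after quantile normalisation was 0.06. In 62 of the 90 the sign was the same under all 4 scalings. By WT level, the 18 features under 2 had a median of -0.26 with 4 positive, and the 32 between 2 and 3 a median of -0.02 with 15 positive. The 28 between 3 and 5 had a median of 0.03 with 16 positive, and the 10 between 5 and 50 a median of 0.09 with 6 positive. The 2 above 50, with 1 positive, reach the top of the scale. WT level set these tiers, chose the 90 and is 1 side of the fold change. A lower value in pete1 pete2 is therefore favoured near the limit, and the tiers are a description.

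**Figure D2:**
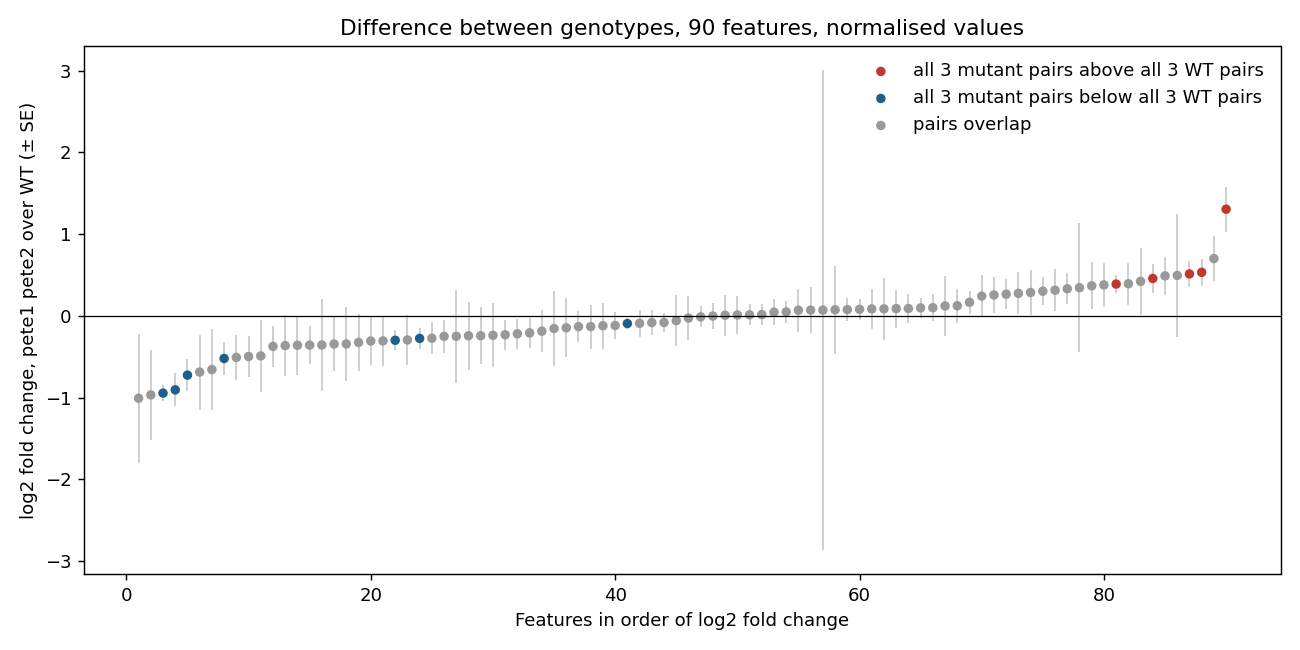
Log2 fold change of pete1 pete2 over WT after quantile normalisation for the 90 features in ascending order, with bars of 1 standard error (3 pairs per genotype). Red points mark the 5 features whose pete1 pete2 pairs all lie above the WT pairs, blue points the 7 below, and grey points those that overlap; the longest bar belongs to feature 4461.

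Feature 10, which lists AT5G03560 and AT4G38150, had the highest log2 fold change of the 90. Its pair means were 3.57, 4.04 and 4.87 in pete1 pete2, against 1.34, 1.90 and 2.18 in WT, and every pete1 pete2 pair lay above every WT pair. The log2 fold change was 1.30 (SE 0.28), with an unadjusted p of 0.00543 and an adjusted p of 0.452 by limma. It ranked 81 by WT level and 26 by pete1 pete2 level. With the 12 columns kept and the pair as a random block, its adjusted p by limma was 0.0438. There the within-pair correlation is common to all features, while columns of the 90 lay closer together.

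Feature 2145, with OPCL1, had 6.60, 7.12 and 8.69 in pete1 pete2, against 4.26, 5.84 and 5.07 in WT, without overlap. The log2 fold change was 0.53 (SE 0.16) and the adjusted p by limma 0.567, and the signal cannot be assigned to OPCL1 among its 5 listed genes. Feature 3898 (AT5G06380, AT3G11690 and AT2G27180) had 3.42, 2.78 and 2.64 in pete1 pete2, against 2.26, 1.94 and 2.18 in WT. Feature 2709 (AT1G08845, AT5G27820 and AT3G20230) had 4.96, 4.17 and 5.36 in pete1 pete2, against 3.75, 3.61 and 3.35 in WT. Their log2 fold changes were 0.51 (SE 0.15) and 0.39 (SE 0.11), and both missed the threshold.

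Feature 4075 lists TROL, the rhodanese-like protein that holds ferredoxin-NADP reductase at the thylakoid membrane, with AT3G25480. It had 3.16, 3.03 and 3.28 in pete1 pete2, against 2.0, 2.80 and 2.60 in WT, without overlap, and its log2 fold change was 0.46 (SE 0.17, adjusted p by limma 0.669), or 0.29 without WT pair 1. Feature 4232 (AT5G35660 and AT2G26500) had 4.64, 5.67 and 7.78 in pete1 pete2, against 2.69, 3.76 and 4.84 in WT. Its log2 fold change of 0.70 (SE 0.28) was the second highest, and the pairs overlapped.

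Feature 1438 lists YUC6 and YUC2, flavin monooxygenases of auxin synthesis. Its pair means were 2.64, 2.40 and 2.57 in pete1 pete2, against 4.36, 5.51 and 4.76 in WT, and all pete1 pete2 pairs lay below all WT pairs. The log2 fold change was -0.95 (SE 0.10), with an unadjusted p of 0.000236 and an adjusted p of 0.202 by limma, the lowest among the 90. Its value was -0.94 on the deposited scale and -0.66 with columns centred on the median. With the pair as a random block over the 12 columns its adjusted p by limma was 0.00335. That fit takes a within-pair correlation common to all features, while columns of the 90 lay closer together. The WT columns that chose the feature are also 1 side of the comparison, which favours a lower value in pete1 pete2. Feature 1438 ranked 14 by WT level and 50 by pete1 pete2 level.

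Feature 1652 (AT1G71970 and AT1G22680) had 2.50, 2.90 and 4.44 in pete1 pete2, against 4.75, 6.56 and 5.98 in WT, without overlap, and a log2 fold change of -0.91 (SE 0.20, adjusted p by limma 0.456). Feature 938 lists the same couple and had 0.996, 1.60 and 0.699 in pete1 pete2, against 2.18, 1.66 and 1.40 in WT, with a log2 fold change of -0.51 (SE 0.27), or -0.31 without pete1 pete2 pair 3. Both are negative, and the correlation of the couple of features over the 6 pair means was 0.50 after quantile normalisation and 0.11 to 0.28 under the other scalings. Feature 2426 (AT1G01910, AT5G60730 and AT3G10350) had 2.37, 2.29 and 4.06 in pete1 pete2, against 3.93, 4.51 and 5.25 in WT. On the deposited scale pete1 pete2 pair 3 overlapped the WT pairs, and the log2 fold change was -0.73 (SE 0.19).

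Feature 578 (AT2G43890 and AT2G43880) had 0.485, 0.787 and 0.982 in pete1 pete2, against 0.870, 1.94 and 2.39 in WT, with overlapping pairs and a log2 fold change of -0.97 (SE 0.56), which was -1.49 without WT pair 1 and -0.61 without WT pair 3. Feature 2150 (AT1G78140 and AT2G41040) had 1.15, 1.56 and 1.78 in pete1 pete2, against 2.68, 1.91 and 2.16 in WT, and a log2 fold change of -0.52 (SE 0.20). The remaining features below WT in every normalised pair differed less. They were feature 3465 (AT5G08720 and AT4G01650) at -0.30, feature 2625 (AT1G15710 and AT5G34930) at -0.28, or -0.16 without pete1 pete2 pair 3, and feature 3891 (AT1G09520 and AT3G17460) at -0.09, which turned to 0.09 with columns centred on the median.

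**Figure D3:**
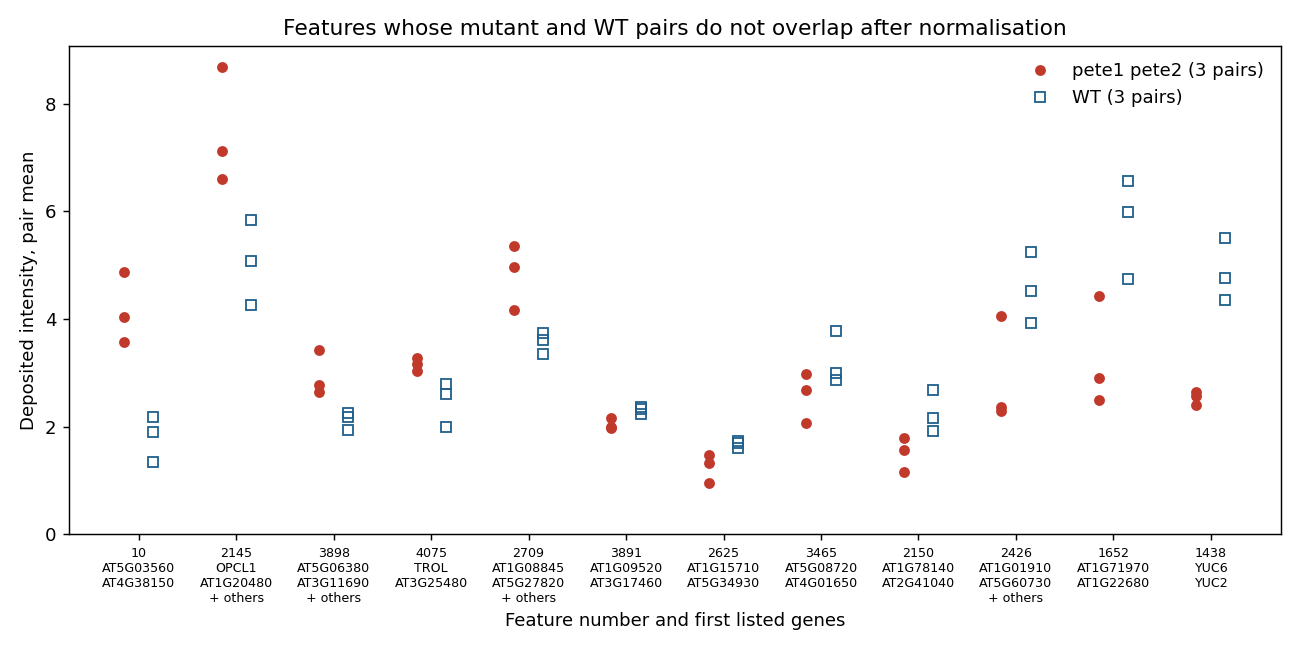
Deposited pair means of the 12 features whose normalised pairs did not overlap between genotypes, with pete1 pete2 as red points and WT as blue squares. Features are ordered by log2 fold change, with feature 10 highest at the left and feature 1438 (YUC6 and YUC2) lowest at the right; features 2426 and 3465 overlap on this deposited scale.

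Named genes in the remaining features showed no separation of the genotypes. Feature 2692 lists RH39, a DEAD-box RNA helicase of chloroplast rRNA processing, with AT3G06980, and had 3.64, 1.47 and 3.69 in pete1 pete2, against 4.36, 3.21 and 3.19 in WT. Feature 1033 lists UBC20 and UBC19, E2 ubiquitin-conjugating enzymes, and had 3.02, 1.86 and 4.88 in pete1 pete2, against 2.17, 5.57 and 2.96 in WT. Feature 1515 lists UFO, an F-box protein of floral meristems, with AT5G15710, and had 2.75, 2.25 and 2.08 in pete1 pete2, against 3.32, 3.47 and 2.02 in WT. Among these 3, the log2 fold changes were -0.49 (SE 0.44), -0.16 (SE 0.46) and -0.19 (SE 0.26). Leaving out 1 pair moved them between -0.73 and -0.05 for feature 2692, -0.48 and 0.21 for feature 1033, and -0.43 and -0.04 for feature 1515.

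Features 3885 and 4538 share AT3G50190 and AT3G50140. Feature 3885 had 7.19, 2.95 and 5.5 in pete1 pete2, against 2.70, 3.16 and 5.98 in WT, and feature 4538 had 2.97, 1.45 and 2.84 in pete1 pete2, against 1.77, 2.02 and 2.56 in WT. In both features pair 2 was the lowest of pete1 pete2 and pair 3 the highest of WT. Their log2 fold changes were 0.42 (SE 0.41) and 0.12 (SE 0.37), and ran between 0.16 and 0.76 and between -0.10 and 0.47 without 1 pair.

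Some features list the same genes as another feature. Among the 870 features listing several genes, 93 couples list exactly the same genes. Of the 90 features, 15 stand in 14 such couples, with 1 couple of features both among the 90. Of the 12 couples in which both features lay above the floor, the brighter exceeded the dimmer by a median of 3.97-fold in WT, between 1.49 and 43.0, where the median over all couples was 2.07-fold. The direction between genotypes was shared in 8 of these 12 couples, where 45 of 81 shared it across all such couples above the floor. The brightness ratio follows in part from the rule, which took 1 feature of each couple for being bright.

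The widest gap was between features 1124 and 573, which list AT1G02060 and AT2G37230. Feature 1124 averaged 3.27 in pete1 pete2, against 3.29 in WT, and feature 573 averaged 0.132 in pete1 pete2, against 0.0764 in WT. Features 227 and 1006, on AT3G04550 and AT5G28500, lay closest, at 1.82 and 1.08 in pete1 pete2, against 1.81 and 1.21 in WT. The 2 features on AT4G20840 and AT4G20830 differed in sign, with log2 fold changes of 0.33 for feature 3179 and -0.27 for feature 1432. The partner of feature 430, on AT5G07760 and AT5G07650, was listed at 0 in all WT columns, and that of feature 4160, on AT1G78110 and AT1G22230, was listed at 0 throughout.

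**Figure D4:**
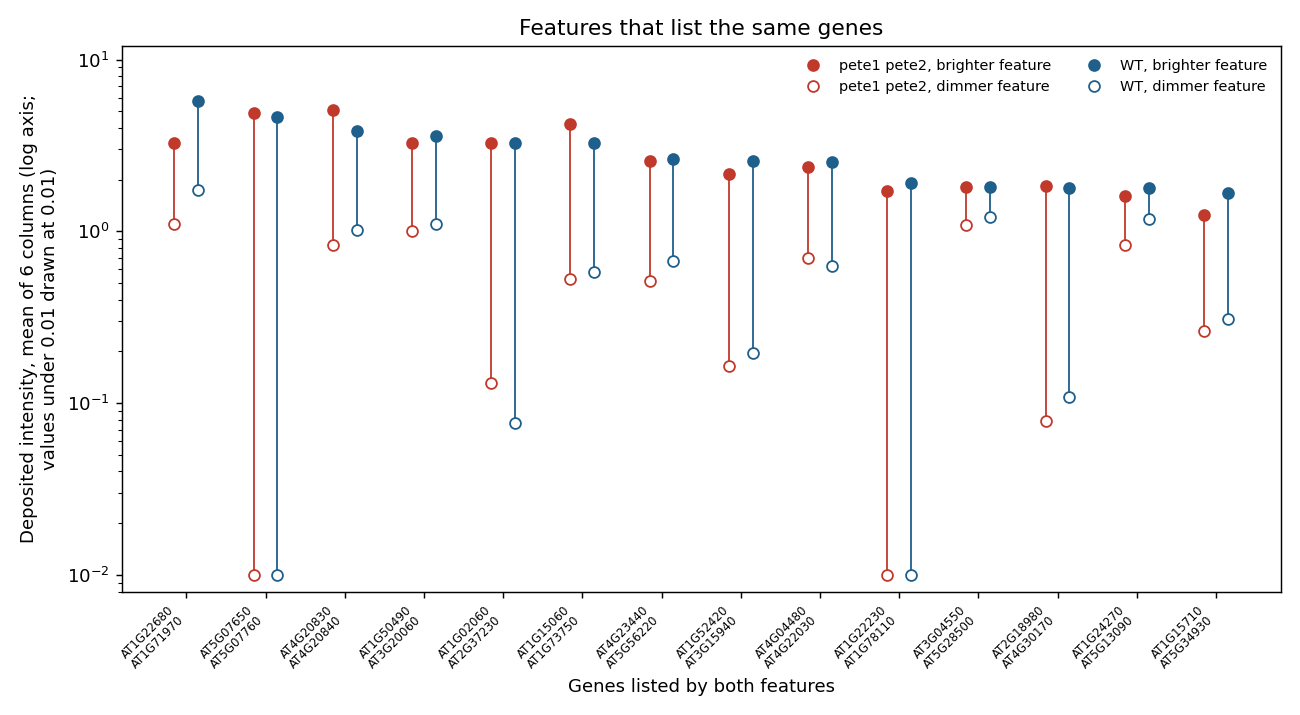
Mean deposited intensity (log axis, 6 columns) of the 14 couples of features that list the same genes, with pete1 pete2 in red and WT in blue; filled points are the brighter and open points the dimmer feature of a couple. Gaps run between 1.49 and 43.0 times in WT for the 12 couples with both features above the floor, and 2 dimmer features listed at or near 0 are drawn at 0.01.

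A gene of 6 of the 90 features also has a feature of its own. Feature 723 averaged 5.58 in pete1 pete2, against 4.06 in WT, where the feature on AT5G01860 alone averaged 0.651 in pete1 pete2, against 0.823 in WT. Feature 3885 stood at 5.22 and the feature on AT3G50130 alone at 2.57 in pete1 pete2, against 3.94 and 2.53 in WT. Feature 2709 stood at 4.83 and the feature on AT1G08845 alone at 0.907 in pete1 pete2, against 3.57 and 0.924 in WT. In these and in 725 and 4251 the feature of several genes was the brighter.

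Feature 113, on AT2G42920 and AT3G26630, was the exception, at 1.21 in pete1 pete2, against 1.75 in WT, where the feature on AT3G26630 alone had 2.64 in pete1 pete2, against 2.56 in WT. Levels of different features reflect probe as well as transcript, so these ratios describe features and not genes.

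Columns of one pair lay close together. The median difference within a pair was 0.068 to 0.074 on the log2 scale over the 90, where over all features it was 0.088 to 0.133. Only 7 of the 90 differed by more than 1.5-fold within any pair. Feature 4461 (AT5G16240 and AT3G02630) had 4.36, 4.42, 4.42, 4.32, 0 and 0.0249 in the 6 pete1 pete2 columns, against 5.29, 5.41, 4.42, 4.51, 0 and 0.0420 in WT, so pair 3 was at or near 0 in both genotypes. Feature 245 (AT5G25280 and AT5G11090) had 4.22, 4.50, 3.62, 3.41, 0.737 and 5.88 in pete1 pete2, against 4.28, 4.24, 3.75, 3.63, 0.260 and 2.66 in WT, with column 5 low in both. Its log2 fold change of 0.49 (SE 0.75) was -0.27 without WT pair 3, 0.80 without pete1 pete2 pair 3 and 0.99 without WT pair 1.

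Feature 1552 (AT5G24390 and AT3G49350) had 1.95, 1.86, 2.18, 2.0, 1.44 and 0.888 in pete1 pete2, against 2.90, 2.81, 2.89, 2.78, 2.09 and 1.17 in WT, where pair 3 was again the lowest in both genotypes. Feature 1323 (AT1G48490 and AT3G17850) ranged between 0.795 and 1.15 in pete1 pete2, against 0.884, 0.878, 1.28, 7.01, 0.956 and 0.985 in WT. Its place among the 90 rests on WT column 4, and by the pete1 pete2 columns it ranked 160.

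**Figure D5:**
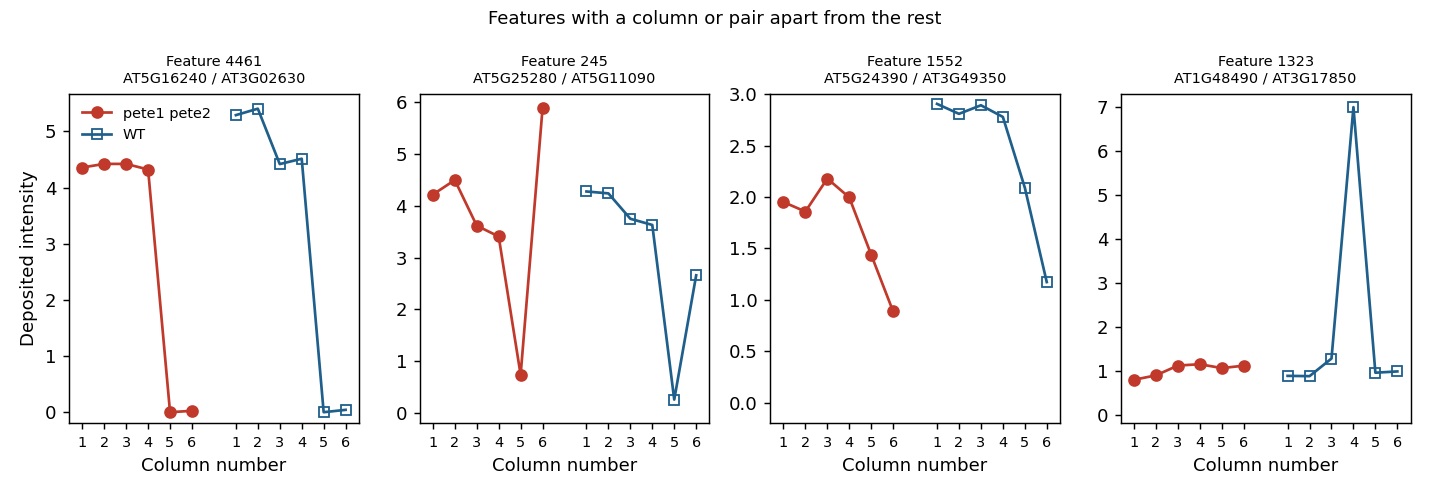
Deposited intensity in each of the 6 columns of pete1 pete2 (red points) and of WT (blue squares) for 4 features with a column or pair apart from the rest; lines join columns only to guide the eye. Feature 4461 is near 0 in columns 5 and 6 of both genotypes, feature 245 is low in column 5 of both, and feature 1323 is high in WT column 4 alone, at 7.01.

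At the limit of the rule, feature 2417 (CSA1, a TIR-NBS-LRR protein, with AT3G51570) and feature 2625 had WT means of 1.69 and 1.68. Just outside were feature 4130 (AT5G63390, AT3G07900 and AT2G44500) at 1.67 and feature 1094 (AT1G20500 and 4CL8) at 1.66. Feature 2417 had 1.06, 1.58 and 0.871 in pete1 pete2, against 2.12, 1.55 and 1.39 in WT. Feature 4130 had 1.44, 1.5 and 0.953 in pete1 pete2, against 2.15, 1.54 and 1.31 in WT, and feature 1094 had 1.25, 0.715 and 1.34 in pete1 pete2, against 1.62, 2.22 and 1.15 in WT.

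For photosynthesis, electron carriers, tissue markers and other processes, 12 lists with 150 genes were laid over the table. None of the 90 features (0) lists any of these genes in the annotation, the antenna, Rubisco, photosystem and histone genes of those lists included. Across all features, 8 of several genes and 10 of one gene list them, from 8 lists, and 0 passed the threshold. The nearest to the 90 were feature 665 at rank 106, which lists AT1G73110 and AT2G39730, and feature 3446 at rank 119, which lists antenna genes. Feature 665 averaged 1.1 in pete1 pete2, against 1.52 in WT, and feature 3446 averaged 1.27 in pete1 pete2, against 1.42 in WT. Feature 2392, which lists the histone H3 genes AT5G10980, AT4G40040 and AT4G40030, averaged 2.17 in pete1 pete2, against 1.22 in WT, with a log2 fold change of 0.87 (SE 0.22, adjusted p by limma 0.525). Feature 3127, which lists AT5G10980 and AT4G40030 of these genes, averaged 0.849 in pete1 pete2, against 0.935 in WT, with a log2 fold change near 0 (SE 0.35). The root plastid markers had no feature (0), so the tissue could not be checked against them. The 3 photosystem II features averaged between 1.37 and 48.8 in pete1 pete2, against 1.76 and 29.4 in WT, with a median log2 fold change of -0.24 and 1 of 3 positive.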

How the data were processed

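The deposited table of the series holds 12 columns of one-colour array intensity, 6 per genotype, on a scale with a maximum of 100. The background correction and normalisation that the authors applied are not given in the sources used here, and the intensities have no SD of their own. The number of arrays limits the precision.

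Genes of each feature come from the platform annotation. Gene order and names come from a RefSeq gene table of assembly TAIR10.1, in which genes were ordered by start position on each chromosome. Distances were counted in genes and not in bases. All 3439 features were quantile normalised, floored at the 1st percentile of positive values (0.0281), put on the log2 scale and averaged over columns 1-2, 3-4 and 5-6. The genotypes were compared with limma 3.58.1 in R 4.3.3 (lmFit, eBayes, 2-sided), with Benjamini-Hochberg adjustment over all features. The fit was tested on simulated data with 3 values against 3. Over 10 runs it found 33.4% of 680 planted 2-fold changes, 63.7% of 673 4-fold and 83.8% of 647 8-fold changes. There were 10.1 false calls per run. The adjustment is stricter where fewer features change, and the deposited data gave 1 call, so these shares may be too high for them. A feature that missed the threshold may therefore still differ between the genotypes. Means beside it are of deposited intensities.

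Features were named with values by rule: the 10 brightest in WT, the 5 highest and 5 lowest log2 fold changes, features at the top of the scale, the last 2 inside and first 2 outside the limit, and those sharing a gene with another of the 90. Others were chosen after their values were seen. The 90 features, the lists and the rules were chosen with earlier results of these data known. Families were to be defined by protein identity, for which no sequences were used here, so a shared gene-name stem was used instead.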

Additional observations from a re-analysis of the deposited data

Results flagged for a closer look

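Each of the 90 features was examined in the 6 columns of each genotype, 180 groups in all, for a column far from its neighbours, and 3 were found. Chance marks about 1 in 20 such groups, and paired columns are not independent. Feature 971 (AT5G05250 and AT3G56360) had 4.31 in pete1 pete2 column 3, where the other 5 columns had 4.99 to 5.40. Feature 3891 (AT1G09520 and AT3G17460) had 2.12 in WT column 5, where the other 5 had 2.30 to 2.39. Feature 1323 (AT1G48490 and AT3G17850) had 7.01 in WT column 4, where the other 5 had 0.878 to 1.28. The causes were not tested.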

How the results depend on the processing

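Of all features 1 was called in the main setting, 0 on the deposited scale, 0 with columns scaled to one total, and 0 to 2 when 1 pair was left out. At an unadjusted p under 0.05 limma gave 257, 240 on the deposited scale, 258 with equal totals and 138 centred on the median. With the 12 columns as separate samples 225 were called, 11 of them among the 90 features, which counts close columns of a pair as separate. With the pair as a random block 19 were called, of which 2 were among the 90. That fit allows for the closeness by a within-pair correlation common to all features, while columns of the 90 lay closer together. Leaving out a pair called 0 to 0 of the 90. The pair number as a replicate block called 0 features and 0 of the 90. Deviations of same-numbered pairs correlated at 0.331, -0.0024 and 0.384 over all features and at 0.475, 0.238 and 0.777 over the 90. Between different-numbered pairs the values ran between -0.396 and 0.157 over all features, and between -0.679 and 0.436 over the 90. The main fit did not treat the pairs as matched, so its SEs and the overlap calls take no account of any matching. The -0.0024 of pair 2 over all features cannot decide whether they match, because deviations around a common mean depend on each other. Over the 90 all same-numbered values were positive, and whether such pairs share a condition was not tested. The median of the 90 was 0.197 with columns centred on the median, 0.058 when ranked by the pete1 pete2 columns, and -0.067 to -0.021 without 1 pair. With 0 genes allowed between neighbours, 4 features were neighbours and 4 mixed. The correlation of features 938 and 1652 was 0.284 as deposited, 0.115 centred and 0.247 with equal totals. The family definitions at 30% and 60% protein identity were not run. Of 600 values of 40 single features under the alternatives, 550 kept direction and call, 13 newly passed the threshold and 37 turned sign. Some alternatives leave the log2 fold change as it was, so no sign could turn there. These are the dimmest 25% left out, the trended robust variance, the 12 separate columns and the block fits. Centring on the median gave 0.14 for feature 1033, 0.41 for 1803, 0.037 for 3553, 0.088 for 3891 and 0.29 for 4444. The deposited scale gave 0.14 for 1803, -0.036 for 3531, 0.015 for 4444 and -0.23 for 4461. Equal totals gave 0.15, -0.019, 0.031 and -0.22 for the same 4, and a pseudocount in place of the floor gave -0.049 for 4461. Features 1803 and 1431 reach the top of the scale, so their values are not read as differences. Leaving out 1 pair gave ranges of -0.27 to 0.99 for 245, -0.067 to 0.33 for 971, -0.046 to 0.26 for 3548, -0.48 to 0.21 for 1033, -0.65 to 0.36 for 1323, -0.092 to 0.069 for 1431, -0.15 to 0.0082 for 1803, -0.15 to 0.22 for 2005, -0.34 to 0.53 for 3531, -0.37 to 1.07 for 4399, -0.24 to 0.0056 for 4444, -2.37 to 2.25 for 4461 and -0.097 to 0.47 for 4538. The cause was not tested.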
